A study of Mus musculus with 4 samples.

Results

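Apart from Prm3, whose product is acidic, the genes described here encode small basic proteins and linker histones that package DNA in maturing sperm nuclei. They are the protamines Prm1 and Prm2 and the protamine-like Prm3, the transition proteins Tnp1 and Tnp2, and the spermatid linker histones Hils1 and H1fnt (called H1f7 by RefSeq). They were chosen by name, and all 7 are among the 23420 genes of the expression table. RNA-seq was performed on pachytene spermatocytes, the cells in the longest stage of meiotic prophase, which were isolated by FACS on DNA staining with DyeCycle Violet from C57BL/6 (B6) mice of WT genotype and 23 weeks of age. The sorted cells were cultured for 24 h either with DMSO (Ctrl) or with 10 µM AZ20, an inhibitor of the kinase ATR, to ask what ATR signaling does once the sex chromosomes have been silenced. There were 2 libraries in each condition. According to the methods, the testicular cells of a mouse were divided between the conditions. Libraries with the same replicate number are therefore taken here as cultures of the same mouse and sort. Neither the methods nor the labels tie the number to a mouse. The sort gives a fraction enriched in pachytene spermatocytes, whose purity was checked by staining of chromosome spreads and is not measured here, and the sample labels give a culture temperature of 34 °C where the methods give another.

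In the testis, histones are removed from chromatin in stages after meiosis. The transition proteins replace most histones in condensing spermatids, and the protamines then replace the transition proteins and compact the genome. The mRNAs of both are known as products of haploid round and elongating spermatids, where they are stored before translation, and are used as markers of these cells. Transcription of several of these genes is known to depend on the activator CREM, which binds cAMP response elements (CRE) and has FHL5 as a partner. HILS1 and the product of H1fnt are linker histones found in spermatid nuclei.

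On GRCm38, 4 of the genes form a cluster of 8889 bp on the minus strand of chromosome 16, chr16:10787935-10796823. In the direction of transcription these are Prm1 (chr16:10796332-10796823), Prm2 (chr16:10791377-10792105), Prm3 (chr16:10790508-10790914) and Tnp2 (chr16:10787935-10788655). Tnp1 lies on the minus strand at chr1:73015074-73015899, where its span overlaps that of the antisense gene 1700027A15Rik, and H1fnt on the minus strand at chr15:98255982-98257307. Hils1 is on the plus strand at chr11:94967593-94968456, where its span overlaps that of Sgca, which is on the other strand. Exons were not compared in these overlaps.

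The promoter windows of RefSeq (GRCm38.p6) were searched on both strands, over the 250 bases before each start, for 5 motifs chosen with the windows in view. A full CRE, TGACGTCA, was in 1.55% of the 32851 windows of all genes and in none of the 7. The looser TGACNTCA was in 7.49% of all windows and in those of Prm1, Prm3 and Tnp1. The nuclear receptor half-site AGGTCA was in 14.0% of all windows and in those of Prm2, Prm3, Tnp2 and H1fnt. Its extended form TCAAGGTCA was in 0.387% of all windows and in that of Prm2. TATAA, sought on the forward strand only and starting 40 to 20 bases before the start, was in 3.52% of all windows and in those of Prm1 and Tnp2. Only these exact letters were counted, so a variant such as tatatat, which Prm2 has within the same positions, was not. The window of Hils1 held none of the 5. These shares count windows, of which a gene can have several, and a match says only that the letters are there. The 220 bases before the start of the 6 genes with a match are printed in the gene's own direction, because they show which letters the genes of the chromosome 16 cluster and the unlinked genes have in common. Capitals mark the matches, of which AGGTCA lies inside the match to TGACNTCA in Prm3 and inside TCAAGGTCA in Prm2. The stretches are on the minus strand at chr16:10796824-10797043 (Prm1), chr16:10792106-10792325 (Prm2), chr16:10790915-10791134 (Prm3), chr16:10788656-10788875 (Tnp2), chr1:73015900-73016119 (Tnp1) and chr15:98257308-98257527 (H1fnt).
Prm1: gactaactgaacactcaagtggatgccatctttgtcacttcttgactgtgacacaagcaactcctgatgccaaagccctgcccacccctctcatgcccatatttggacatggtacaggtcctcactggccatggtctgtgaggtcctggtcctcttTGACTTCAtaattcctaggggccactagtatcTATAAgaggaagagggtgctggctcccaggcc
Prm2: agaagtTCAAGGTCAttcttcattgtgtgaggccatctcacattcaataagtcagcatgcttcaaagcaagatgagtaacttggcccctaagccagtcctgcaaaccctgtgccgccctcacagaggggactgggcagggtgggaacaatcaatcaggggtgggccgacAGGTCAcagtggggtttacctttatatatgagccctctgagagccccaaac
Prm3: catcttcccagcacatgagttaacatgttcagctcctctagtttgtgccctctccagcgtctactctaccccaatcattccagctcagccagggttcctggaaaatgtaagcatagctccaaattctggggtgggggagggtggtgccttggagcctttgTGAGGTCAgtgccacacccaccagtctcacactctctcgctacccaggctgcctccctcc
Tnp2: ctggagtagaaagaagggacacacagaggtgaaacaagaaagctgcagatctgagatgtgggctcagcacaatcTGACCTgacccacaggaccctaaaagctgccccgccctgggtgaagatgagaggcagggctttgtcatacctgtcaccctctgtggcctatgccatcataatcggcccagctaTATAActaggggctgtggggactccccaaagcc
Tnp1: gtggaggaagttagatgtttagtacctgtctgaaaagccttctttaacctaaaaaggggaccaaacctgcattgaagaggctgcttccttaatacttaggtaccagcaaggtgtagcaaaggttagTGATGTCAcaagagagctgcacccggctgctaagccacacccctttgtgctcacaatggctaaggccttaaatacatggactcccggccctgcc
H1fnt: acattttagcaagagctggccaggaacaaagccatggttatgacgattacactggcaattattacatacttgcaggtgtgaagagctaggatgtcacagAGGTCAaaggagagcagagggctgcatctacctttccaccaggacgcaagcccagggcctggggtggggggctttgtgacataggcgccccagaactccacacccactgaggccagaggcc
Counting back from -1 at the base before the start, the CRE-like match began at -64 in Prm1, -60 in Prm3 and -94 in Tnp1, and TATAA at -32 in Prm1 and -33 in Tnp2.

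Estimated gene reads numbered 15018510 (replicate 1) and 17113116 (replicate 2) for Ctrl, against 21753410 and 19901899 for AZ20. A mean of more than 1 TPM (the level of a transcript as a share of its library, with gene length taken into account) in either condition was reached by 10316 genes, and all 7 genes were among them. The cells carried the genes of their label at high levels, with Sycp3, a component of the synaptonemal complex, at 2061 to 2924 TPM in the 4 libraries, and Ldhc, the germ cell lactate dehydrogenase, at 5216 to 6178 TPM. Hist1h1t, the linker histone that marks mid and late pachytene spermatocytes, was seen in only 16 reads of Ctrl replicate 2 and 11 reads of AZ20 replicate 1. The methods list an antibody to this histone among those used to check the sorted cells. Whether the libraries capture mRNA of such histone genes was not tested, so these few reads do not measure the stage of the cells. Of the somatic cell markers, 3 of 14 Sertoli cell genes (Sox9, Wt1 and Fshr), 8 of 10 Leydig cell genes and 4 of 17 genes of macrophages, peritubular and blood cells (C1qa, Hba-a1, Hba-a2 and Hbb-b1) were listed at 0 in every library. The Sertoli cell genes that passed the filter were Tjp1 (3.78 TPM or more), Dhh (1.34 to 1.68 TPM) and Vim (0.594 to 1.70 TPM). Of the Leydig cell genes, Star (0.866 to 2.31 TPM) and Fabp3 (0.310 to 3.65 TPM) passed it. Tagln (1.59 to 2.83 TPM) and Pecam1 (0.315 to 1.25 TPM) did so among those of macrophages, peritubular and blood cells. Numbers of genes above 1 TPM were 9579 and 9290 in Ctrl and 10120 and 9839 in AZ20.

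Transcripts of all 7 genes were detected in every library, at levels that spanned more than 2 orders of magnitude. Tnp2 was the highest. It stood at 191 TPM in Ctrl replicate 1, 81.0 TPM in Ctrl replicate 2, 426 TPM in AZ20 replicate 1 and 123 TPM in AZ20 replicate 2, from 1059, 514, 3403 and 886 reads. These values placed Tnp2 between the percentiles 83.6 and 95.1 of the genes tested in each library. Prm1, which with Prm2 encodes the protamines that compact mouse sperm chromatin, followed at 83.0 and 39.2 TPM in Ctrl replicates 1 and 2 and 210.3 and 73.9 TPM in AZ20 replicates 1 and 2. For both genes the AZ20 library of replicate 1 was the highest and the Ctrl library of replicate 2 the lowest, and each replicate 1 library lay above both libraries of replicate 2. AZ20 replicate 1 was highest and Ctrl replicate 2 lowest in 6 of 7 genes, all but H1fnt, against 11.5% of all genes tested.

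The other transition protein, Tnp1, reached 44.4 and 10.2 TPM in Ctrl replicates 1 and 2 and 65.4 and 24.9 TPM in AZ20 replicates 1 and 2. Prm2 was measured at 30.3 and 10.3 TPM in Ctrl and at 44.8 and 16.1 TPM in AZ20, in the same order of replicates. Prm3, whose product is acidic and unlike the other protamines, was at 23.1 and 8.31 TPM in Ctrl and 47.8 and 17.8 TPM in AZ20. In each of these genes too, both libraries of replicate 1 exceeded both of replicate 2. Hils1 had lower values of 14.8 and 7.84 TPM in Ctrl and 31.6 and 13.3 TPM in AZ20, again with no overlap between the replicates.

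H1fnt differed from the rest. Its levels were 0.523 and 0.850 TPM in Ctrl and 3.84 and 0.460 TPM in AZ20, from 7, 13, 74 and 8 reads. Only AZ20 replicate 1 stood clear of the other libraries, in which its percentile among the genes tested was 1.89 to 9.18 against 27.1 in that library.

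**Figure D1:**
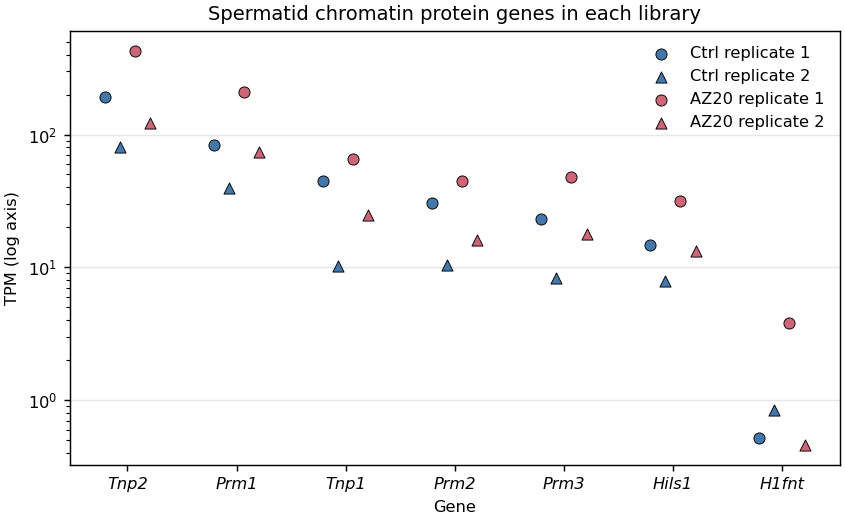
Level of each gene in TPM on a log axis, 1 point for each library, with circles for replicate 1, triangles for replicate 2, blue for Ctrl and red for AZ20. In 6 genes the circles lie above both triangles and AZ20 replicate 1 is highest, whereas H1fnt is above 1 TPM in AZ20 replicate 1 alone (3.84 TPM).

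By mean level the order was Tnp2, Prm1, Tnp1, Prm2, Prm3, Hils1 and H1fnt. Neighbours in this order kept their places in 4 of 4 libraries, except that Tnp1 was above Prm2 in 3 of 4 and Prm2 above Prm3 in 2 of 4, so the last pair could not be ordered. Summed over the 7 genes, the level was 387 and 158 TPM in Ctrl replicates 1 and 2 and 829 and 269 TPM in AZ20, or 0.0387%, 0.0158%, 0.0829% and 0.0269% of each library's TPM. The sum in replicate 1 was 2.45 times that in replicate 2 in Ctrl and 3.08 times in AZ20. In bulk samples such as these, fewer cells of a type and less RNA per cell cannot be told apart.

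The make-up of the sum moved much less than its size. Tnp2 contributed 49.3% and 51.4% of it in Ctrl and 51.3% and 45.6% in AZ20, and Prm1 21.4% and 24.9% in Ctrl and 25.4% and 27.5% in AZ20. The ratio of Tnp2 to Prm1 accordingly stayed between 1.66 and 2.30. Tnp1 was the least constant of the larger shares, at 11.5% and 6.45% in Ctrl and 7.88% and 9.24% in AZ20, and the ratio of Tnp2 to Tnp1 ranged from 4.29 in Ctrl replicate 1 to 7.96 in Ctrl replicate 2. The ratio of Prm1 to Prm2, both of which enter mature sperm chromatin, was 2.74 and 3.79 in Ctrl and 4.69 and 4.60 in AZ20, with the AZ20 libraries above both Ctrl libraries. That difference was not tested.

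**Figure D2:**
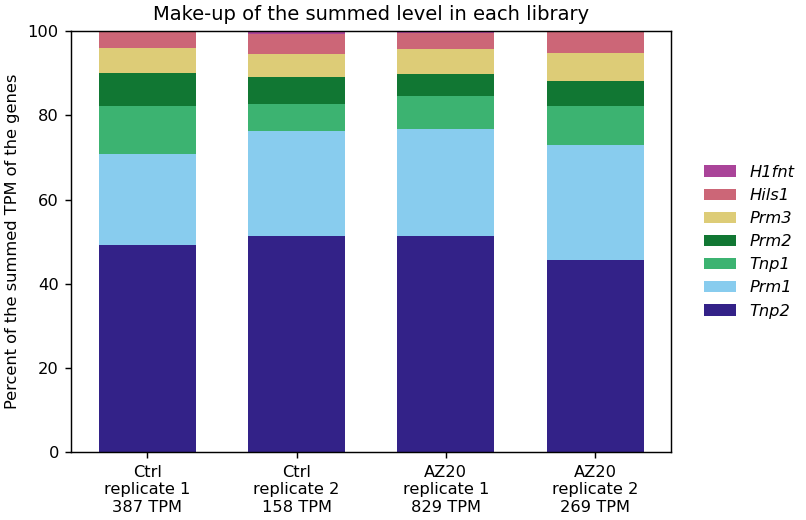
Percent of the summed TPM contributed by each gene in each library, as stacked bars, with the sum in TPM under each bar. Tnp2 and Prm1 make up most of every bar, and Tnp2 stays between 45.6% and 51.4% while the sum runs from 158 to 829 TPM.

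The replicates were compared first. The calls restate the separation of the levels given above with an error and a background, and are no independent support for it. The test was limma on log2(TPM + 1) with condition and replicate number in the fit, and a gene was called at a difference of at least 2-fold on that scale with a Benjamini-Hochberg adjusted p under 0.05 over the 10316 genes. On the reading of the replicate number given above, it sets 1 mouse and sort against another over their 2 cultures. Its p-values speak of these preparations only. By this rule Prm1, Prm2, Prm3, Tnp1, Tnp2 and Hils1, 6 of 7, were higher in replicate 1, against 1.89% of all genes tested. None of the 7 was lower, against 0.281%. Both replicate 1 libraries were above both replicate 2 libraries in the same 6, against 20.0% of all genes. In TPM, replicate 1 was at least 2 times replicate 2 in both conditions in 5 of 7, all but Hils1 and H1fnt, against 3.36%.

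Tnp1 differed most between the replicates, by 1.69 on the log2(TPM + 1) scale (SE 0.25, limma adjusted p = 3.1e-05), with 2.02 in Ctrl and 1.36 in AZ20. Tnp2 was higher by 1.51 (SE 0.22, limma adjusted p = 2.4e-05), Prm2 by 1.44 (SE 0.25, adjusted p = 0.000263), Prm3 by 1.38 (SE 0.25, adjusted p = 0.000512) and Prm1 by 1.28 (SE 0.23, adjusted p = 0.000352). Hils1 was the smallest of the calls at 1.01 (SE 0.26, limma adjusted p = 0.0204), just past 2-fold, and its call was lost under most other settings (median scaling gave 0.97, limma adjusted p = 0.0471). With voom on the recovered reads Prm2 and Prm3 also missed the threshold (adjusted p = 0.0508 and 0.16). The median over the 7 genes was 1.38, and that over all genes tested 0.03. In the protamines and transition proteins the difference was at least 1.06 in both conditions, and in Prm3 it was nearly equal in them, at 1.37 in Ctrl and 1.38 in AZ20. With the condition left out of the fit, the same differences had limma adjusted p of 0.736 to 0.94 for these 6 genes and no gene of the 10316 was called, although 421 higher and 131 lower had an unadjusted p under 0.05, among them 5 of the 7.

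H1fnt had a difference of 0.72 (SE 0.40, limma adjusted p = 0.571) and was not called. In Ctrl its reads gave a depth-scaled ratio of replicate 1 to replicate 2 of 0.614 (95% interval 0.207 to 1.65) and in AZ20 one of 8.46 (4.08 to 20.3). These intervals are exact and cover counting error alone. In Ctrl the depth therefore could not show a difference in either direction.

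**Figure D3:**
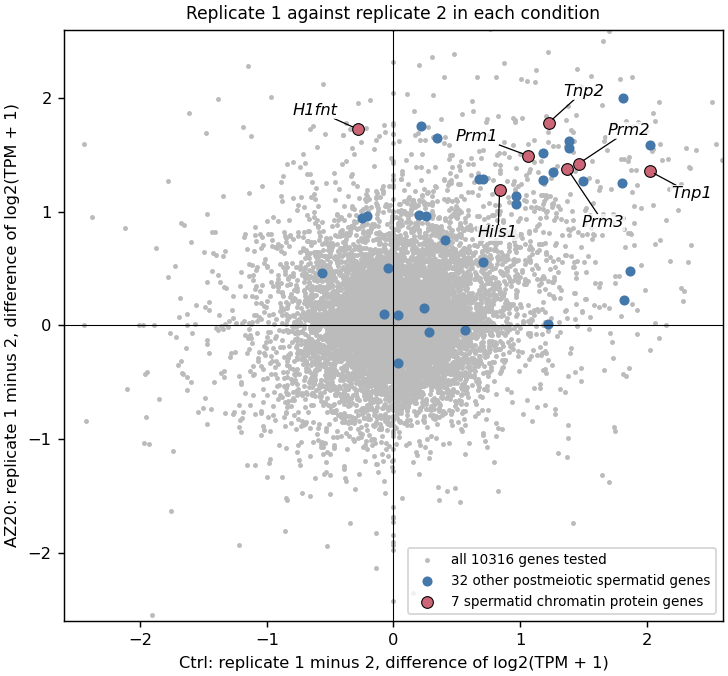
Difference of log2(TPM + 1) between replicates 1 and 2 in Ctrl (horizontal axis) and in AZ20 (vertical axis) for all 10316 genes tested (grey), the other postmeiotic spermatid genes (blue) and the 7 genes described here (red), with 19 genes outside the axes. The red points other than H1fnt lie in the upper right, at 0.84 to 2.02 in Ctrl and 1.19 to 1.79 in AZ20.

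The genes most like the 7 across libraries were sought by the Euclidean distance between centred log2(TPM + 1) values, taking the mean profile of Prm1, Prm2, Tnp1 and Tnp2 over the 4 libraries as the reference, among 5175 genes with a mean above 10 TPM. Dnajc5b was nearest, at a distance of 0.0779, with 17.8 and 6.33 TPM in Ctrl and 36.4 and 11.5 TPM in AZ20. Smcp, which encodes a cysteine-rich protein of the sperm mitochondrial capsule, came next at 0.0950, and Svopl (0.291), Lelp1 (0.313) and Cabs1 (0.333), a gene of a calcium-binding protein of spermatids, followed. The 7 genes themselves lay at 0.191 (Prm3) to 1.24 (H1fnt), and the median of the candidates was 1.73. Prm1, Prm2, Tnp1 and Tnp2 are part of the reference, so their distances are not comparable with those of the candidates. With 4 libraries this is a description of likeness only.

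Other genes known from spermatids were split. Of a list of 34, 32 passed the filter on TPM, and 12 of these were higher in replicate 1 and none lower, against 1.89% and 0.281% of all genes. The median difference of the 32 was 0.99 on the log2(TPM + 1) scale against 0.03 for all genes, and 19 of the 32 had both replicate 1 libraries on top, against 20.0% of all genes. The largest were Lyzl4, a lysozyme-like sperm gene, at 1.91 (limma adjusted p = 4.81e-05), Spaca7, which encodes an acrosomal protein, at 1.81 (limma adjusted p = 2.65e-05) and Cabs1 at 1.53. Tssk3 and Tssk2, kinases of late spermatogenesis, were higher by 1.51 and 1.38, and Smcp by 1.47 (limma adjusted p = 0.000155). The 3 genes of the list with the highest levels did not pass the test. Dkkl1, an acrosomal protein gene, was at 3053 and 3217 TPM in Ctrl and 2548 and 2382 TPM in AZ20, and differed by 0.01 between replicates. Tcp11 (206 to 293 TPM) differed by 0.23 and Pgk2, the glycolytic isozyme gene that is already transcribed in spermatocytes, by 0.63 (limma adjusted p = 0.166). Median levels of the 32 were 5.77 and 3.04 TPM in Ctrl and 11.0 and 5.23 TPM in AZ20, whereas their summed TPM, most of it from Dkkl1, was 2921 to 3735 in the 4 libraries. None of the 34 was at 0 in every library. Their part in the levels of the 7 genes was not tested. Whether each gene of the list is transcribed only after meiosis was not tested either, so its name does not place these transcripts in spermatids.

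Genes that regulate the exchange of histones for protamines, or the transcription, storage and translation of protamine mRNA, were called higher in replicate 1 in 2 of 30 cases and lower in none, against 1.89% and 0.281% of all genes. Fhl5, the CREM partner, was at 25.5 and 2.82 TPM in Ctrl and 30.6 and 11.7 TPM in AZ20, higher in replicate 1 by 2.05 (limma adjusted p = 1.97e-05). Hmgb4, which encodes an HMG-box protein of spermatids, was at 105 and 23.7 TPM in Ctrl and 149 and 48.4 TPM in AZ20, higher by 1.85 (limma adjusted p = 7.8e-06). Both had the library order of the protamine genes, with AZ20 replicate 1 highest and Ctrl replicate 2 lowest. Crem itself had 135 and 139 TPM in Ctrl and 108 and 118 TPM in AZ20, a difference of -0.08 between replicates (limma adjusted p = 0.988); it is named here for its tie to Fhl5, after its values were seen. The 3 highest genes of the list, H3f3b and H3f3a for histone H3.3 and Ddx25 for a germ cell RNA helicase, were not called, at -0.31, -0.10 and 0.08. The median over the 30 was 0.05.

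Among the other linker histones only H1f0 and H1fx could be tested. H1f0, for the replacement histone H1.0, was at 44.0 and 139 TPM in Ctrl and 55.5 and 76.2 TPM in AZ20 and was lower in replicate 1 by 1.04 (a difference of -1.04, limma adjusted p = 0.0118), the opposite direction to Hils1. H1fx differed by -0.40 (adjusted p = 0.758). Hist1h1a, Hist1h1b and Hist1h1c were listed at 0 throughout, and whether the libraries capture their mRNA was not tested. None of 33 pachytene spermatocyte genes was called in either direction, which is near the 1.89% and 0.281% of all genes for a list of this size, with a median of -0.02 and a summed TPM of 18005 and 18429 in Ctrl and 18419 and 18785 in AZ20. This list shares Piwil1, Hspa2, Ybx2 and Tbpl1 with the regulators. Spermatogonial genes (12.5 and 24.4 TPM summed in Ctrl, 18.1 and 22.7 in AZ20), Sertoli cell genes (8.18 to 10.1 TPM over the 4 libraries), Leydig cell genes (1.18 to 5.25 TPM) and genes of macrophages, peritubular and blood cells (3.29 to 7.01 TPM) had 3, 3, 2 and 2 members tested, and none was called between the replicates. These marker sums did not follow the library order of the protamine genes.

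**Figure D4:**
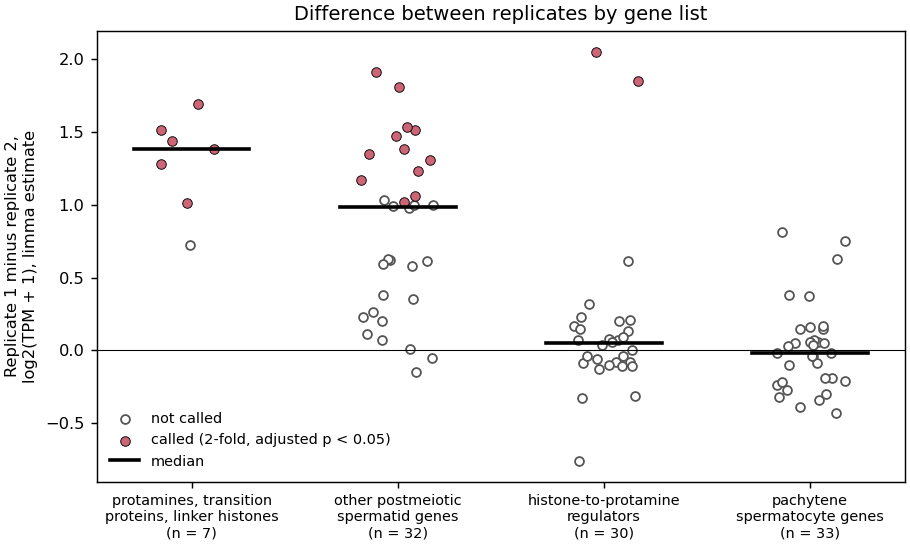
Difference between replicates 1 and 2 in log2(TPM + 1), as estimated by limma, for each tested gene of 4 lists, with filled points for genes called and a bar at the median of each list. The medians run from 1.38 for the 7 genes and 0.99 for other postmeiotic genes to 0.05 for regulators, where Fhl5 and Hmgb4 stand apart, and -0.02 for pachytene genes.

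The neighbours in the genome were set beside Tnp1 and Hils1, since the sources used here do not say whether reads were counted by strand. The antisense gene 1700027A15Rik was at 20.8 and 9.11 TPM in Ctrl and 34.6 and 16.7 TPM in AZ20, higher in replicate 1 by 1.06 (limma adjusted p = 0.012). It moved with Tnp1, and without strand the reads of the overlap cannot be told apart. Sgca, around Hils1, differed by -0.25 (limma adjusted p = 0.906).

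AZ20 was compared with Ctrl next, to ask whether inhibition of ATR changed these transcripts. Without a term for the replicate, none of the 7 genes was called in either direction by limma, against 2.28% of all genes called higher and 0.0485% called lower, and none had an unadjusted p under 0.05. The groups overlapped in all 7, because Ctrl replicate 1 was above AZ20 replicate 2. Both AZ20 libraries were above both Ctrl libraries in 26.4% of all genes. Tnp2 had a mean of 136 ± 77.6 TPM in Ctrl and 274 ± 214 TPM in AZ20 (SD, n = 2 each), a difference of 0.87 on the log2(TPM + 1) scale (SE 0.60, limma adjusted p = 0.771). Prm1 had 61.1 ± 31.0 TPM in Ctrl and 142 ± 96.4 TPM in AZ20, a difference of 1.11 (SE 0.52, limma adjusted p = 0.615). The remaining differences were 1.01 (Prm3), 0.88 (Tnp1), 0.87 (Hils1), 0.66 (H1fnt) and 0.57 (Prm2), with limma adjusted p from 0.671 to 0.858. For each of the 7 genes, leaving out at least 1 of the 4 libraries moved the difference by more than 1.5 times. It turned the direction of Prm2 (-0.16) and Tnp1 (-0.13) without Ctrl replicate 2, and of Prm2 (-0.14), Tnp2 (-0.02) and H1fnt (-0.20) without AZ20 replicate 1. These fits had no term for the replicate, and leaving out a library left its partner of the same number unmatched. Within pairs, AZ20 was higher in both for Prm2, Tnp1 and Tnp2, and in pair 1 alone for H1fnt. In each of the 7 genes the difference between replicates was larger than that between AZ20 and Ctrl.

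Between libraries of the same replicate number, AZ20 was the higher of the pair for 6 of 7 genes in both pairs, against 36.1% of all genes. Prm1 differed by 1.33 in pair 1 and 0.90 in pair 2, and Prm3 by 1.02 and 1.01. Tnp2 and Hils1 differed more in pair 1 (1.15 and 1.04) than in pair 2 (0.59 and 0.69), and Tnp1 less (0.55 against 1.21). Prm2 had the smallest pair of values, 0.55 and 0.59. In sum, the level of AZ20 was 2.14 times that of Ctrl in pair 1 and 1.71 times in pair 2. H1fnt differed by 1.67 in pair 1 and by -0.34 in pair 2, where its reads gave an AZ20 to Ctrl ratio of 7.30 (95% interval 3.37 to 18.8) and 0.529 (0.190 to 1.38).

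**Figure D5:**
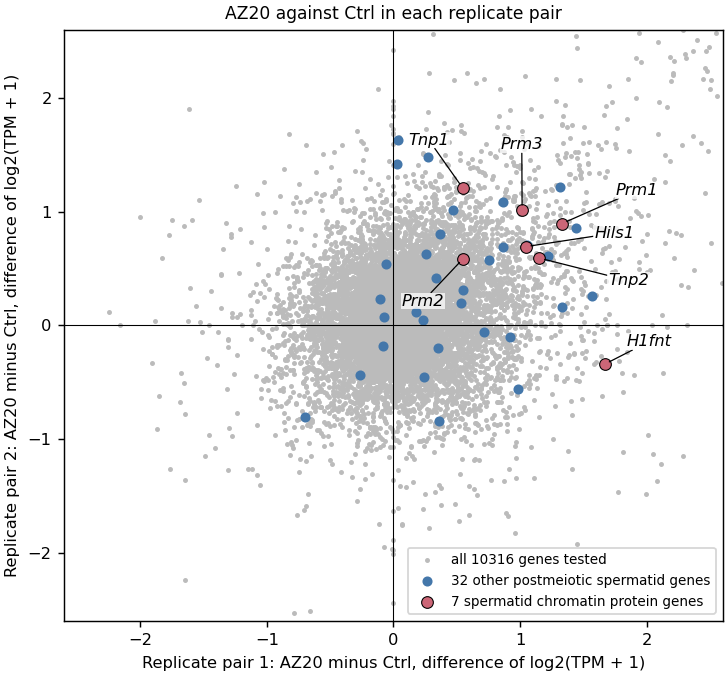
Difference of log2(TPM + 1) between AZ20 and Ctrl in replicate pair 1 (horizontal axis) and pair 2 (vertical axis), with grey points for all 10316 genes tested, blue for other postmeiotic spermatid genes and red for the 7 genes described here, and 213 genes outside the axes. The 6 genes other than H1fnt lie to the upper right of the origin, at 0.55 to 1.33 in pair 1 and 0.59 to 1.21 in pair 2.

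The replicate number was then added to the fit as a block, which removes the difference between the replicates. Prm1 (SE 0.23, limma adjusted p = 0.000766) and Prm3 (SE 0.25, limma adjusted p = 0.00767) were then called higher with AZ20. These are 2 of 7, against 4.11% of all genes called higher and 0.223% lower under the block. All genes again include the X-linked ones, so these are not shares over autosomal genes. Tnp2 (limma adjusted p = 0.00766), Tnp1 (0.0279) and Hils1 (0.0373) passed the threshold on p but not the 2-fold threshold, and 4.61% of all genes were higher and 0.310% lower on p alone. Prm2 (limma adjusted p = 0.277) and H1fnt (0.549) passed neither. Of the 32 other spermatid genes, none was called with AZ20 without the block and Txndc8, a thioredoxin domain gene of spermatids, with it (difference 1.27, limma adjusted p = 0.00192). Their median difference was 0.42, against 0.87 for the 7 genes and 0.07 for all genes. None of the regulators, other linker histones or pachytene genes was called with either fit. Fabp3 of the Leydig cell list was called under the block (difference 1.26, limma adjusted p = 0.0311), from Ctrl levels of 0.310 and 0.948 TPM and AZ20 levels of 3.65 and 2.14 TPM, with fewer than 10 reads in each Ctrl library.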

How the data were processed

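Total RNA from 4 cultures of sorted pachytene spermatocytes was sequenced as paired reads. According to the submitters' notes, the authors trimmed reads with Trimmomatic (version 0.39), aligned them to GRCm38 with STAR (version 2.5.4b), kept unique alignments, counted them on refGene genes with featureCounts (version 2.0.1) and deposited TPM. The TPM of a library add up to 1000000, so a level is a share. Lines with no gene name (92) were left out.

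Reads were recovered from the TPM by the steps between libraries, and all 16857 genes above 0 came out whole within 0.02 reads. So many multipliers were tried for each gene that such a fit was nearly certain, and it does not check the reads. In genes with many reads a wrong multiplier can fit first, so their reads are uncertain. Such reads enter the voom fit and the library totals. Where a gene's reads share a whole divisor, TPM does not show it. It was then set from RefSeq and GENCODE transcript lengths for 3107 genes, so total reads are estimates, and the implied length was within 10% of the annotated one for 82.9% of 10860 genes with 1 transcript. None of the 7 genes needed a factor.

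Genes with a mean above 1 TPM in Ctrl or AZ20 (10316) were tested with limma (version 3.58.1 in R 4.3.3) on log2(TPM + 1) with an intensity trend, two-sided, which understates the changes of low genes. The fit was tested on simulated data. The comparison of AZ20 with Ctrl had no other term, and the comparison of replicates had condition as a term. Pairing comes from the methods, which state that cells of a mouse were divided between conditions. It also rests on the shared replicate numbers, which the methods do not tie to a mouse. Deviations of same-numbered libraries from their group means correlated at 0.229 across 10316 genes, which are not independent.

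The 7 genes, the gene lists and the tests were chosen with earlier results of these data known. Beside the 7 genes, the rule named the 3 highest tested genes of each list, the genes called in each list (at most 6) and the 5 genes most like the protamines and transition proteins. Python 3.11.15, pandas 2.3.3, numpy 2.4.6, scipy 1.17.1 and matplotlib 3.10.9 did the rest. Alternatives were pseudocounts of 0.1 and 0.01, no filter or a mean above 5 TPM, quantile normalization, median scaling, no trend, voom on the recovered reads, a replicate block, no condition term, no fold threshold and leaving out each library.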

Additional observations from a re-analysis of the deposited data

Results flagged for a closer look

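H1fnt moved in opposite directions in the pairs. The difference of AZ20 from Ctrl in log2(TPM + 1) was 1.67 in replicate pair 1 and -0.34 in pair 2, and the difference of replicate 1 from replicate 2 was -0.28 in Ctrl and 1.73 in AZ20. Whether the pairs or the conditions differed in this was not tested, and the reads behind 3 of the 4 libraries were 7, 13 and 8.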

How the results depend on the processing

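The number of the 7 genes called higher in replicate 1, 6 as reported, was 3 with voom on the recovered reads, 0 with no condition term and 5 or 6 under the other alternatives. Hils1 lost its call under most settings other than the reported one, with limma adjusted p up to 0.94, and Prm2 and Prm3 lost theirs with voom (adjusted p 0.0508 and 0.16). All genes called higher in replicate 1 (195) numbered 41 with a pseudocount of 0.01, 38 with no filter, 118 with quantile normalization, 127 with no trend, 39 with voom and 0 with no condition term. Those called lower (29) numbered 1, 4, 10, 3 and 0 with a pseudocount of 0.01, no filter, no trend, voom and no condition term, and 18 with a mean above 5 TPM. For AZ20 against Ctrl, the replicate block gave 2 of the 7 genes instead of 0, and of all genes 424 higher instead of 235 and 23 lower instead of 5. The number lower was 1 with no filter and 1 with voom. Leaving out each library gave 0 to 200 genes higher and 0 to 1 lower. It moved the median of the 7 genes from 0.87 to between 0.20 and 1.56, and in the replicate comparison from 1.38 to between 1.23 and 1.43. Leaving out a library turned some directions: the AZ20 difference ran from -0.16 (without Ctrl replicate 2; -0.14 without AZ20 replicate 1) to 1.30 for Prm2, from -0.13 (without Ctrl replicate 2) to 1.89 for Tnp1, and, lowest without AZ20 replicate 1, from -0.02 to 1.77 for Tnp2 and -0.20 to 1.53 for H1fnt. H1fnt between replicates ran from -0.28 without either AZ20 library to 1.73 without either Ctrl library. The AZ20 fits with a library left out had no term for the replicate, so the partner of that library stayed unmatched. The cause of these changes was not tested. Quantile normalization moved the median AZ20 difference of all genes from 0.07 to -0.07. Precision is limited by 2 replicates of each condition and, for H1fnt, by its few reads.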
